A study of Mus musculus with 20 samples.

Results

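Collagens and laminins are the main structural proteins of the extracellular matrix, and this account follows their genes through mouse pluripotent stem cells and epiblast-like cells. The genes were taken by name: every row of the deposited count table whose symbol has the form of a collagen chain or of a laminin alpha, beta or gamma chain was kept, with Lama1 left out. This gave 54 of the 21361 genes in the table, 44 collagen genes and 10 laminin genes. After the filter on low counts 45 of the 54 were tested, among 16363 genes in all. The 9 untested genes were Col3a1, Col4a3, Col4a4, Col6a6, Col8a1, Col10a1, Col19a1, Col28a1 and Lama2, and none exceeded 0.340 CPM, the count scaled by the library total, in any library.

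Collagen chains wind into triple helices. Fibrillar collagens such as types I, III, V and XI build fibres, fibril-associated collagens such as types IX, XII and XIV coat them, and collagen IV forms the sheet-like network of basement membranes. Laminins are heterotrimers of an alpha, a beta and a gamma chain that assemble on the cell surface and start basement membrane formation. In the early embryo a laminin-rich basement membrane lies under the epiblast, and naive embryonic stem cells correspond to the epiblast before implantation, epiblast-like cells to a stage just after it.

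Poly(A)-selected RNA was sequenced from 20 libraries, each labelled as a cell line, in a study of what primordial germ cells can become when placed in early embryos. The groups were wildtype embryonic stem cells from host embryos (ESC Host, n = 4), Bax knockout embryonic stem cells (ESC BaxKO, n = 2), a Bax heterozygous line (ESC BaxHet, n = 1), stem cell lines of primordial germ cell origin without Bax (PGC-ESC BaxKO, n = 5) or without both Puma and Noxa (PGC-ESC DKO, n = 3), and epiblast-like cells, made from ESC Host 3 and 4 in EpiLC Host (n = 2) and from PGC-ESC DKO 1, 2 and 3 in EpiLC DKO (n = 3). Bax, Puma and Noxa promote programmed cell death. The Bax lines have the strain label C57Bl6J/129SvEvRoEp and the Host and DKO lines C57Bl6J, so Bax genotype and strain cannot be told apart between these sets. The described culture holds stem cells on gelatin with LIF, a GSK3 inhibitor and a MEK inhibitor; how epiblast-like cells were made is stated in none of these sources. The p-values below measure the spread between these libraries.

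Library totals ran from 14255399 to 33376660 counts. Summed CPM of 6 naive markers was 2210 to 3551 in the 15 ESC and PGC-ESC libraries. In the 5 EpiLC libraries it was 72.2 to 128. The sum of 4 formative markers was 96.4 to 203 and 1153 to 2219, so the sums match the labelled cell types. Of the formative markers, Otx2 did not separate the types. Its mean was 4.87 CPM in EpiLC Host and 19.3 CPM in EpiLC DKO. It was at 7.36 CPM in ESC BaxHet and at a mean of 6.48 CPM in PGC-ESC BaxKO. The ribosomal RNA precursor gene Rn45s split the libraries into 9 under 10000 CPM and 11 above; all 5 PGC-ESC BaxKO libraries were under it, all 3 PGC-ESC DKO and all 5 EpiLC libraries above it, and ESC Host and ESC BaxKO held both kinds. Replicates of a group differed by more than counting error in all 24 pairs.

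The most abundant gene of the set differed between stem cells and epiblast-like cells. Per kilobase of exon, the laminin gamma1 gene Lamc1 was the most abundant of the 54 genes in all 15 ESC and PGC-ESC libraries, and Col18a1, the basement membrane collagen that is the source of endostatin, was the most abundant in all 5 EpiLC libraries. The collagens that passed the test were mostly higher after conversion and the laminins mostly lower. In EpiLC Host against ESC Host, 18 of the 45 tested genes were higher and 7 lower at an adjusted p under 0.05; over all tested genes 22.4% were higher and 21.7% lower. In EpiLC DKO against PGC-ESC DKO, 22 were higher and 6 lower, beside 25.1% and 22.5% of all tested genes. The median log2 fold change of the 45 was 0.99 in the Host conversion and 1.29 in the DKO conversion, and that of all tested genes -0.03 and 0.01; over the 36 that reach the low-count filter without the EpiLC libraries it was 0.82 and 0.89, and over all 15394 such genes -0.09 and -0.04. The libraries are bulk samples, so more cells that make a transcript and more RNA per cell cannot be told apart.

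Of the 45 tested genes 9 reached the filter only because of the EpiLC libraries (Col4a6, Col6a1, Col6a2, Col8a2, Col9a1, Col12a1, Col24a1, Col25a1 and Lamc3), so they could only be found higher there, and their calls are no sign of a family's direction. Of the other 28 collagens, 11 were higher and 3 lower in the Host conversion and 13 higher and 2 lower in the DKO conversion, with median log2 fold changes of 0.98 and 1.26. Of the other 8 laminins, 0 were higher and 4 lower in the Host conversion and 2 higher and 4 lower in the DKO conversion, with medians of -1.10 and -0.75. The laminin counts differed with the line as a block, which pairs each EpiLC library with its parent line. In that fit ESC Host 1 and 2, which have no EpiLC library, do not enter the Host difference. What part of the change comes from the pairing was not tested. With the block, 2 laminins, Lama5 and Lamb1, were higher and 4 lower in the Host conversion. In the DKO conversion 3 were higher and 4 lower. Over all 9 laminins the Host median was -0.83 without the block and -0.05 with it. The DKO median over all 9 was -0.42 in both fits. Over all 36 tested collagens the counts were 18 higher and 3 lower in the Host conversion and 20 and 2 in the DKO conversion, and with the block 20 and 2, and 18 and 3.

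The Host and DKO conversions share no library. Of the 45 genes, 14 were higher in both, which is 77.8% of the Host and 63.6% of the DKO calls, and 6 were lower in both, 85.7% and 100%. Over all tested genes the same shares were 88.6% and 79.0% for higher and 84.4% and 81.1% for lower calls. Among the 14 genes, Col4a6, Col6a1, Col6a2, Col8a2, Col24a1 and Col25a1 reached the filter only because of the EpiLC libraries. They could only be found higher, so their agreement in direction carries no weight. Without EpiLC Host 3 the Host count went to 15; EpiLC Host 4 was then the lone converted library and was taken to vary like the other groups. Col18a1, Col11a1, Col27a1, Col4a5 and Col9a3 were among those no longer called (adjusted p = 0.0801 to 0.228). Col9a3 also did not pass without ESC Host 3 (adjusted p = 0.0645) or EpiLC Host 4 (adjusted p = 0.103). No gene was called in opposite directions, and 12 were called in neither.

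**Figure D1:**
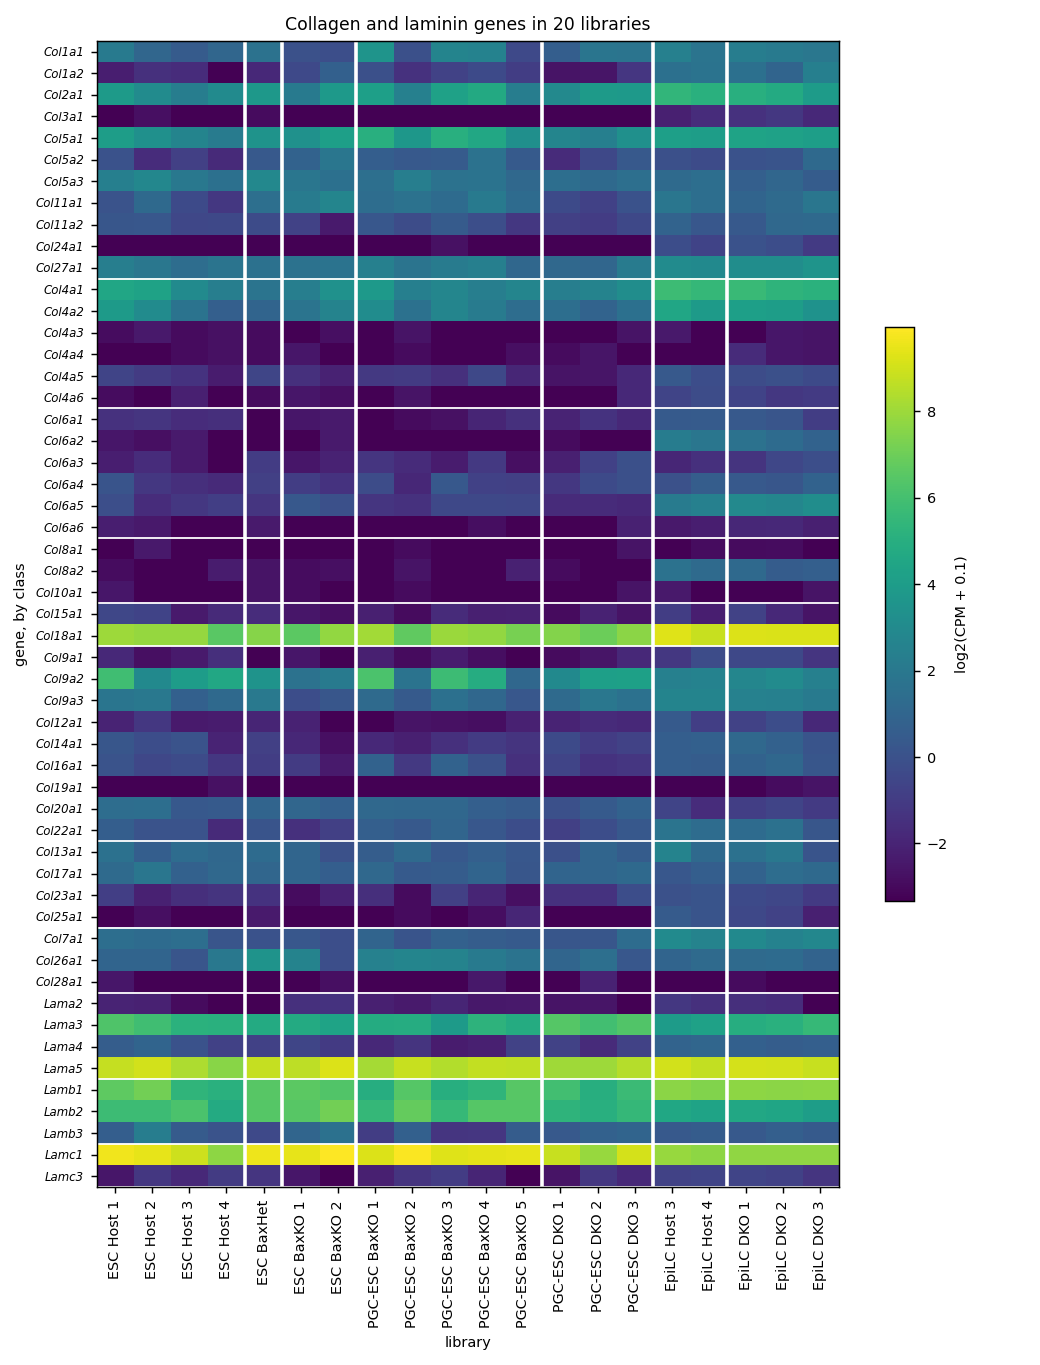
Heat map of 53 genes (rows, grouped by class) in the 20 libraries (columns, white lines between groups), coloured by log2(CPM + 0.1). Lamc1, Lama5 and Col18a1 are bright throughout. The 5 EpiLC columns at the right are brighter than all others for Col4a1, Col4a5, Col4a6, Col6a1, Col6a2, Col6a5, Col8a2 and Col24a1. For the other collagen IV and VI genes and Col25a1 they overlap with stem cell columns.

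**Figure D2:**
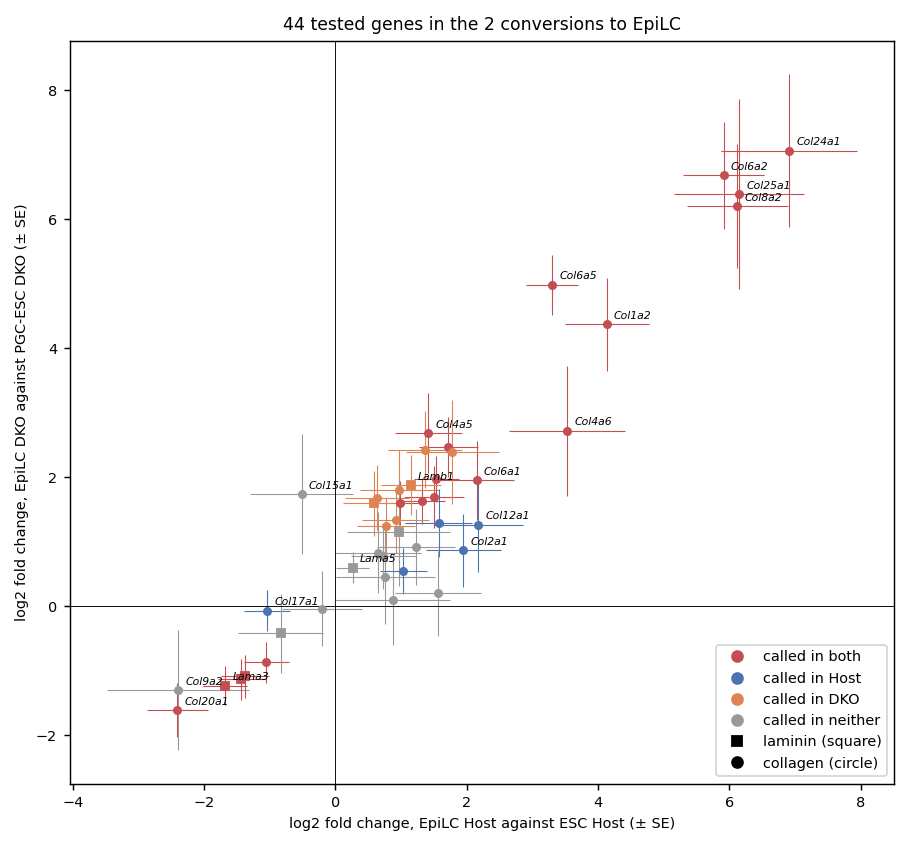
Log2 fold change ± SE of 44 tested genes in the Host conversion (horizontal axis) and the DKO conversion (vertical axis), with circles for collagens, squares for laminins and colour for the conversion in which a gene was called. The called genes lie in the upper right or lower left; Col24a1, Col25a1, Col8a2 and Col6a2 lie farthest out, where fitted values depend on the prior count because the stem cell libraries hold few or no reads.

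Laminin chains did not change together: Lamc1, Lama3 and Lamb2 fell in both conversions and Lamb1 rose in the DKO conversion. Lamc1, the gamma chain of most laminins (build mm10, chromosome 1, 153218922 to 153332786), was at 806, 711, 494 and 209 CPM in the ESC Host libraries and at 237 and 204 CPM in EpiLC Host. It was at 448, 239 and 553 CPM in PGC-ESC DKO and at 215, 212 and 215 CPM in EpiLC DKO. ESC Host lines 1 and 2, which held the most Lamc1 of ESC Host, are not the parents of the EpiLC lines. ESC Host line 4 already lay within the EpiLC range, while the DKO groups did not overlap. Lamc1 fell by 1.43 ± 0.36 on the log2 scale in the Host conversion (adjusted p = 0.00357) and by 1.13 ± 0.32 in the DKO conversion (adjusted p = 0.00753). Over the alternative runs of the closing section its Host log2 difference ran from -1.68 to -0.785.

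Lama3 and Lamb3 encode chains of epithelial laminins. Lama3 was at 77.0, 59.3, 35.2 and 34.2 CPM in ESC Host, at 15.5 and 19.3 CPM in EpiLC Host, at 88.3, 60.0 and 82.3 CPM in PGC-ESC DKO and at 30.3, 34.3 and 47.8 CPM in EpiLC DKO. Stem cell and converted libraries did not overlap in either set, and Lama3 fell by 1.68 ± 0.34 in the Host conversion (log2, adjusted p = 0.000646) and by 1.23 ± 0.30 in the DKO conversion (adjusted p = 0.00258). ESC Host lines 1 and 2, not parents of the EpiLC lines, again held the most of ESC Host. Over the alternative runs the Host log2 difference of Lama3 ran from -1.84 to -1.24. Lamb3 was low, between 0.314 and 4.80 CPM over all 20 libraries, and was not called in either conversion.

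Lamb1 and Lamb2 encode alternative beta chains. Lamb1 (chromosome 12, 31265234 to 31329644) was at 102, 139, 40.9 and 34.6 CPM in ESC Host and at 198 and 176 CPM in EpiLC Host, with a log2 difference of 1.15 ± 0.46 that did not pass (adjusted p = 0.0502). With the line as a block, Lamb1 passed in the Host conversion, at 2.07 (adjusted p = 2.62e-05). That fit pairs each EpiLC library with its parent line and leaves ESC Host 1 and 2 out of the Host difference. It was at 61.4, 31.3 and 52.8 CPM in PGC-ESC DKO and at 204, 199 and 210 CPM in EpiLC DKO, and rose by 1.88 ± 0.46 there (log2, adjusted p = 0.00279). The 5 EpiLC libraries were all above the highest stem cell library and lay close together, while the ESC Host libraries spread over a wide range. Lamb2 fell by 1.37 ± 0.37 in the Host conversion (log2, adjusted p = 0.00539) and by 1.09 ± 0.33 in the DKO conversion (adjusted p = 0.0114), from 27.6 to 72.3 CPM in the parent lines of both sets to 16.5 to 24.7 CPM.

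Lama5, the alpha chain of laminin-511, was at 440, 527, 322 and 194 CPM in ESC Host and at 531 and 430 CPM in EpiLC Host. In PGC-ESC DKO it was at 268, 258 and 349 CPM and in EpiLC DKO at 536, 519 and 459 CPM. It was not called: the log2 differences were 0.26 ± 0.25 (adjusted p = 0.42) and 0.59 ± 0.24 (adjusted p = 0.0508). With the line as a block it passed in both, at 0.69 (adjusted p = 0.0135) and 0.59 (adjusted p = 0.00923). The Host groups overlapped and the DKO groups did not. Of the minor chains, Lama4 rose by 1.59 ± 0.50 in the DKO conversion (log2, adjusted p = 0.015) and was at 0.59 ± 0.47 in the Host conversion (adjusted p = 0.329), and Lamc3 was at 0.569 CPM at most and was not called.

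Ratios between chains were taken per kilobase of exon, which allows levels of different genes to be compared. Lamb1 over Lamc1 was 0.119 ± 0.0409 (SD, n = 4) in ESC Host and 0.101 ± 0.0188 (SD, n = 3) in PGC-ESC DKO, against 0.707 ± 0.0140 (SD, n = 2) in EpiLC Host and 0.797 ± 0.0172 (SD, n = 3) in EpiLC DKO. Over all 15 stem cell libraries it ran from 0.0420 to 0.163 and over the 5 EpiLC libraries from 0.697 to 0.816, with no overlap. Lamb1 over Lamb2 was between 0.286 and 1.55 in the stem cell libraries and between 5.07 and 7.81 in EpiLCs. Lamc1 over Lama5 was between 1.28 and 3.00 before conversion and between 0.552 and 0.655 after it. These ratios are descriptions and no test was made of them.

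**Figure D3:**
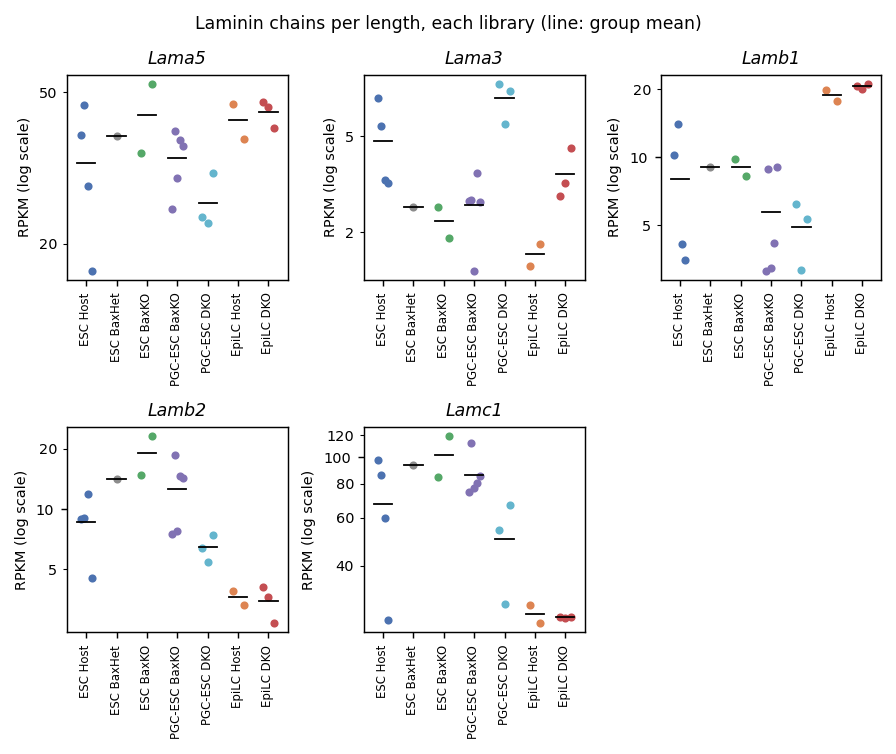
Levels of 5 laminin genes as CPM per kilobase of exon (RPKM, log scale), 1 point per library, with a black line at each group mean. Lamb1 is highest and Lamb2 is lowest in the EpiLC groups, Lamc1 in EpiLCs sits with the lowest stem cell libraries, and Lama5 overlaps between the groups.

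Basement membrane collagens rose where Lamc1, Lama3 and Lamb2 fell. Col18a1 (chromosome 10, 77052178 to 77166548) was at 256, 227, 234 and 92.4 CPM in ESC Host and at 632 and 458 CPM in EpiLC Host. It was at 181, 125 and 196 CPM in PGC-ESC DKO and at 597, 587 and 588 CPM in EpiLC DKO. The groups did not overlap, and Col18a1 rose by 1.32 ± 0.35 in the Host conversion (log2, adjusted p = 0.00525) and by 1.63 ± 0.35 in the DKO conversion (adjusted p = 0.000969). Its relative Col15a1, of the same class of collagens, was at 0.606 CPM at most and was not called.

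Col4a1 and Col4a2 encode the chains of the common collagen IV network and lie head to head on chromosome 8, where their exons share 22 bases. Col4a1 was at 23.1, 20.2, 8.01 and 5.07 CPM in ESC Host and at 53.9 and 45.4 CPM in EpiLC Host, a rise of 1.72 ± 0.45 (log2, adjusted p = 0.00447). It was at 5.04, 6.03 and 8.82 CPM in PGC-ESC DKO and at 50.3, 38.9 and 35.8 CPM in EpiLC DKO, a rise of 2.47 ± 0.47 (adjusted p = 0.000341). No stem cell library reached the lowest EpiLC library. ESC Host lines 1 and 2, which are not the parents of the EpiLC lines, held the most Col4a1.

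Col4a2 was at 14.9, 8.27, 3.18 and 1.54 CPM in ESC Host and at 23.1 and 14.9 CPM in EpiLC Host, so that the level in ESC Host 1 met that in EpiLC Host 4. The log2 difference of 1.36 ± 0.56 did not pass (adjusted p = 0.0576); with only the parent lines 3 and 4 as ESC Host it was 2.77 (adjusted p = 0.000618), and with the line as a block 2.81 (adjusted p = 5.23e-05). In the DKO set it was at 2.71, 1.75 and 2.90 CPM before and at 18.0, 16.7 and 10.9 CPM after conversion, a rise of 2.43 ± 0.59 (adjusted p = 0.00275). Per kilobase, Col4a1 over Col4a2 stayed within 0.915 to 3.05 in the stem cell libraries and 2.06 to 2.92 in EpiLCs, ranges that overlap.

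Col4a5 and Col4a6, the X-linked collagen IV pair, also lie head to head, 1.31 kb apart. Col4a5 was at 0.568, 0.396, 0.278 and 0.0995 CPM in ESC Host and at 1.19 and 0.792 CPM in EpiLC Host, and rose by 1.42 ± 0.51 (log2, adjusted p = 0.0307). This did not pass without ESC Host 3, ESC Host 4 or EpiLC Host 4 (adjusted p = 0.0611, 0.0629 and 0.0511). It was at 0.0615, 0.0701 and 0.193 CPM in PGC-ESC DKO and at 0.749, 0.860 and 0.684 CPM in EpiLC DKO, and rose by 2.68 ± 0.62 (adjusted p = 0.00179). Col4a6, which could only be found higher, was called in both, from at most 0.193 CPM in the Host and DKO parents to 0.337 to 0.754 CPM. The third collagen IV pair, Col4a3 and Col4a4, was not tested and was at 0.210 CPM at most.

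Collagen VI, a microfibrillar collagen, had 3 of 5 tested genes called higher in each conversion, Col6a1, Col6a2 and Col6a5; the first and second of these are among the genes that could only be found higher, and 22.4% and 25.1% of all genes were higher. Col6a5 gave the smallest adjusted p of the family. It was at 0.795, 0.220, 0.340 and 0.448 CPM in ESC Host and at 4.51 and 5.39 CPM in EpiLC Host, a rise of 3.30 ± 0.39 (log2, adjusted p = 3.02e-06). In PGC-ESC DKO it was at 0.215, 0.210 and 0.193 CPM and in EpiLC DKO at 7.49, 6.62 and 8.96 CPM, a rise of 4.98 ± 0.47 (adjusted p = 1.94e-07). All EpiLC libraries lay above all stem cell libraries, of which ESC BaxKO 1 was highest at 1.16 CPM. Its neighbour Col6a4, 28.8 kb away on the same strand of chromosome 9, was not called, with log2 differences of 1.23 ± 0.59 and 0.92 ± 0.59, and the third gene of that cluster, Col6a6, was at 0.187 CPM at most and was not tested.

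Col6a2 was at 0.0757, 0.0440, 0.0928 and 0 CPM in ESC Host and at 4.68 and 3.58 CPM in EpiLC Host. It was at 0.0308, 0 and 0 CPM in PGC-ESC DKO, 1 read in all, and at 3.09, 2.36 and 1.68 CPM in EpiLC DKO, 193 reads. The DKO ratio was 158 with a 95% counting interval of 28.0 to 6267, which covers counting error only, as do the other intervals and bounds on low counts below. The adjusted p was 3.93e-06 in the Host conversion, with a fitted log2 rise of 5.91 ± 0.62, and 1.91e-05 in the DKO conversion. Its neighbour Col6a1 on chromosome 10 rose in both, by 2.15 ± 0.57 (adjusted p = 0.00506) and 1.95 ± 0.62 (adjusted p = 0.0152). Col6a3, whose chain completes the common collagen VI trimer, was not called, at 0 to 0.837 CPM over all libraries.

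**Figure D4:**
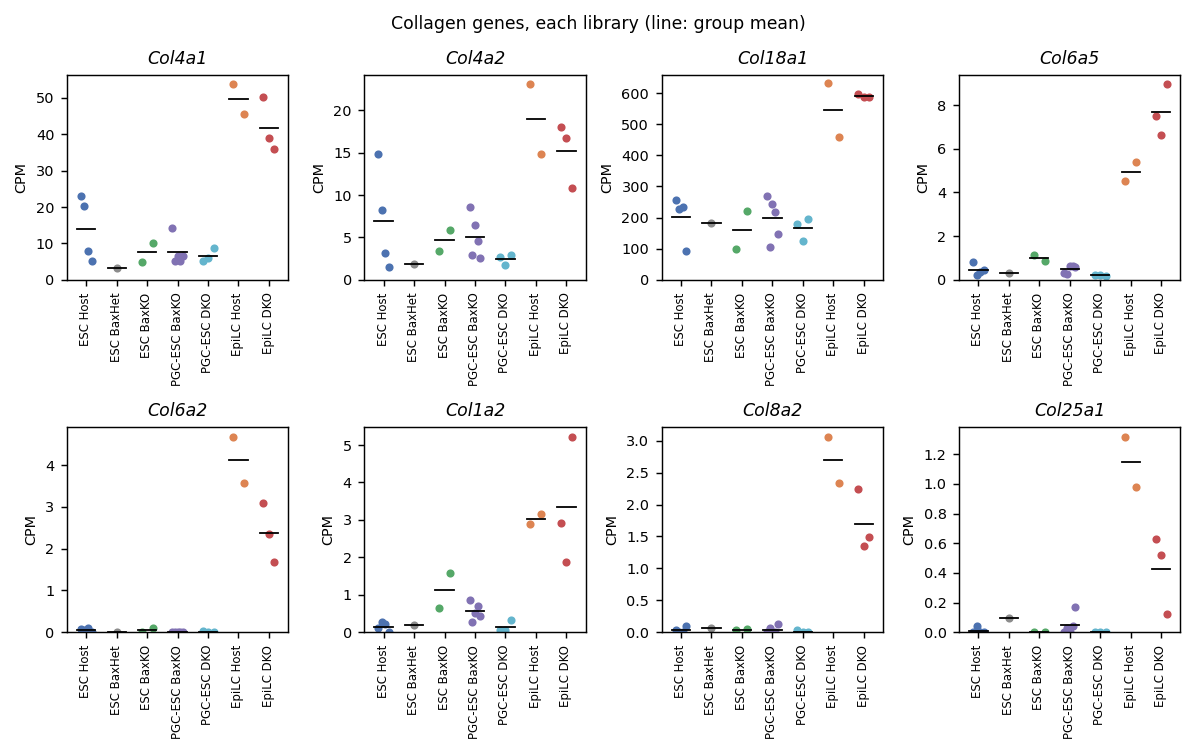
Levels of 8 collagen genes in CPM on linear axes that start at 0, 1 point per library, with a black line at each group mean. Each EpiLC group mean lies above that of its parent group for all 8 genes; for Col4a2 ESC Host 1 meets EpiLC Host 4, and for Col25a1 the lowest EpiLC DKO library, at 0.124 CPM, lies below PGC-ESC BaxKO 5 at 0.173 CPM.

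A small set of collagen genes was at or near 0 in stem cells and was read in every EpiLC library. Among them Col8a2, Col24a1 and Col25a1 reached the filter only because of the EpiLC libraries and could only be found higher. The windows of 250 bases upstream of the annotated start of 4 genes that were higher in both conversions are printed to show how far the start regions of genes that rose together share letters. They were picked after the values were seen, among called genes with 1 listed start and at most 1 exon base in the window. They come from RefSeq on build GRCm38.p6, read 5′ to 3′ on the strand of the gene: Col25a1 chr3:130180595-130180844 (plus strand), Col24a1 chr3:145292222-145292471 (plus strand), Col8a2 chr4:126286544-126286793 (plus strand) and Col6a5 chr9:105960644-105960893 (minus strand). The Col25a1 start in RefSeq lies 49.3 kb inside the gene as the GENCODE annotation used for lengths has it, so that the annotations differ on this start. Capitals mark 3 promoter motifs, searched on both strands. The GC box, bound by Sp1-type factors, was searched as GGGCGG. The box named by its own letters, bound by nuclear factor Y, was searched as CCAAT. The core promoter element that binds the TATA-binding protein was searched as TATAAA.
Col25a1: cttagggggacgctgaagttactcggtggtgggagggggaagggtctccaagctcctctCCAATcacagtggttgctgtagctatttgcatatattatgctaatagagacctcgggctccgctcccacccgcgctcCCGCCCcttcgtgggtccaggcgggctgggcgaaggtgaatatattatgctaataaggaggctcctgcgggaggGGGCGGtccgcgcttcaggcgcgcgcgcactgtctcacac
Col24a1: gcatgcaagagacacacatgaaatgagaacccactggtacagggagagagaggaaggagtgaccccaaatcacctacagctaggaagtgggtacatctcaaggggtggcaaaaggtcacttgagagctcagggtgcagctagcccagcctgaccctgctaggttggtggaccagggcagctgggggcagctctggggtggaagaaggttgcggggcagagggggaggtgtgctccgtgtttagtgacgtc
Col8a2: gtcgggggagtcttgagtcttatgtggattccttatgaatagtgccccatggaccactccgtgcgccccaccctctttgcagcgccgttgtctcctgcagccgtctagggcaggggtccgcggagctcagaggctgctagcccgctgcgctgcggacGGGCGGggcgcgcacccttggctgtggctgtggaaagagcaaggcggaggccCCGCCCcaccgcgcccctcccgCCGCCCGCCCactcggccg
Col6a5: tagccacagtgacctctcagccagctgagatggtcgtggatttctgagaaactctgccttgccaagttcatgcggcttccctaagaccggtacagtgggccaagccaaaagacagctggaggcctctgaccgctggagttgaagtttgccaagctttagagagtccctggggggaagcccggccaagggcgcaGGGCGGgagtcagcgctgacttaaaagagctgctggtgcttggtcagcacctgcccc
The windows have little in common by these motifs: Col8a2 holds 4 GC boxes, of which neighbouring matches overlap, Col25a1 holds 2 GC boxes and 1 match to the second motif, Col6a5 holds 1 GC box and Col24a1 none of the 3 motifs. Of the 54 genes, 40 matched an entry in the promoter table; a GC box was in 23 of the 40 windows and in 32.9% of those of 27025 genes, the second motif in 13 and in 34.5%, and the third in 5 and in 13% of all. The median share of G and C was 59.2% in the 40 windows and 52% over all genes, and GC boxes were not compared at equal share. A match is a run of letters in this window and was not tested as a site.

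Col24a1, a fibrillar collagen, had 0 reads in each of the 4 ESC Host and the 3 PGC-ESC DKO libraries. It was at 0.766 and 0.528 CPM in EpiLC Host and at 0.929, 0.786 and 0.373 CPM in EpiLC DKO, and 1 read was found among the other stem cell libraries, in PGC-ESC BaxKO 3. Against a floor of 3 reads over the parent group, it was at least 21.7-fold higher in EpiLC Host and at least 15.8-fold higher in EpiLC DKO (adjusted p = 0.000195 and 0.000427).

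Col25a1, a transmembrane collagen best known in neurons, had 1 read over ESC Host, in line 2 at 0.0440 CPM, and 0 in PGC-ESC DKO. It was at 1.32 and 0.980 CPM in EpiLC Host and at 0.629, 0.524 and 0.124 CPM in EpiLC DKO, of which line 3 was lowest. The Host ratio was 116 (95% counting interval 19.96 to 4651) and the DKO level at least 10.1-fold higher (adjusted p = 0.000155 and 0.00241).

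Col8a2, a short-chain collagen of the basement membrane under the corneal endothelium, was at 0.0379, 0, 0 and 0.0995 CPM in ESC Host and at 3.06 and 2.34 CPM in EpiLC Host. It was at 0.0308, 0 and 0 CPM in PGC-ESC DKO and at 2.25, 1.35 and 1.49 CPM in EpiLC DKO. The ratios were 90.7 (95% counting interval 30.4 to 445) and 110 (19.5 to 4393), with adjusted p = 5.73e-06 and 4.7e-05. No stem cell library exceeded 0.130 CPM. The partner gene Col8a1 was not tested and was at 0.0880 CPM at most.

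Fibrillar collagens were uneven. Col1a2, the alpha2 chain of collagen I, was at 0.114, 0.264, 0.216 and 0 CPM in ESC Host and at 2.89 and 3.17 CPM in EpiLC Host, a rise of 4.13 ± 0.64 (log2, adjusted p = 5.08e-05). It was at 0.0615, 0.0701 and 0.322 CPM in PGC-ESC DKO and at 2.91, 1.87 and 5.23 CPM in EpiLC DKO, a rise of 4.37 ± 0.72 (adjusted p = 9.05e-05). The highest stem cell library was ESC BaxKO 2 at 1.59 CPM, below the lowest EpiLC library.

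Col1a1, whose product joins that of Col1a2 in collagen I, was not called. It was at 4.20, 1.98, 1.30 and 1.99 CPM in ESC Host and at 5.45 and 3.32 CPM in EpiLC Host, and at 1.45, 3.44 and 3.35 CPM in PGC-ESC DKO and 4.79, 4.34 and 3.67 CPM in EpiLC DKO. The log2 differences were 0.76 ± 0.75 (adjusted p = 0.435) and 0.46 ± 0.74 (adjusted p = 0.633), and the Host groups overlapped. Col3a1, a fibre collagen of connective tissue, was not tested: it had 1 read over ESC Host and 9 over EpiLC Host, a ratio of 18.3 with a 95% counting interval of 2.53 to 801, and 0 over PGC-ESC DKO and 21 over EpiLC DKO, at least 5.73-fold higher.

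Col27a1, a fibrillar collagen of cartilage, was at 5.03, 3.78, 2.60 and 3.38 CPM in ESC Host and at 8.21 and 7.88 CPM in EpiLC Host, a rise of 0.99 ± 0.35 (log2, adjusted p = 0.0274) that did not pass without ESC Host 3 (adjusted p = 0.0665) or EpiLC Host 4 (adjusted p = 0.0939). It was at 2.15, 1.96 and 4.57 CPM in PGC-ESC DKO and at 9.08, 9.02 and 11.6 CPM in EpiLC DKO, a rise of 1.60 ± 0.35 (adjusted p = 0.00106). Neither pair of groups overlapped.

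Col11a1, which nucleates thin fibrils, rose by 1.50 ± 0.46 in the Host conversion (log2, adjusted p = 0.0129) and by 1.69 ± 0.48 in the DKO conversion (adjusted p = 0.00776). Col2a1, the main cartilage collagen, was called higher in the Host conversion with a log2 rise of 1.95 ± 0.57 (adjusted p = 0.0101) and was at 0.87 ± 0.57 in the DKO conversion (adjusted p = 0.217); the difference between the conversions, -1.08 ± 0.81, was not called. Col5a3 fell in both, by 1.05 ± 0.34 (adjusted p = 0.0176) and 0.87 ± 0.32 (adjusted p = 0.0322), while Col5a1 rose in the DKO conversion by 1.24 ± 0.44 (adjusted p = 0.0264). The Col5a1 call was lost without line 1 or 2 of either DKO group (adjusted p = 0.0546 to 0.0962). Col5a2 was called in neither.

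Col7a1 makes the anchoring fibrils under stratified epithelia. It was at 2.65, 2.42, 2.72 and 1.04 CPM in ESC Host and at 8.04 and 5.99 CPM in EpiLC Host, a rise of 1.54 ± 0.35 (log2, adjusted p = 0.00156). It was at 1.08, 1.05 and 2.51 CPM in PGC-ESC DKO and at 7.88, 5.80 and 6.84 CPM in EpiLC DKO, a rise of 1.98 ± 0.36 (adjusted p = 0.000229). The EpiLC libraries were above every stem cell library. Reads of the microRNA gene Mir711, which shares 36 exon bases with Col7a1, cannot be told apart from it in these counts.

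Among the 8 tested fibril-associated collagens, 3 were higher and 1 lower in each conversion, beside 22.4% and 21.7% of all genes in the Host and 25.1% and 22.5% in the DKO conversion; Col9a1 and Col12a1 could only be found higher. The lower one was Col20a1 in both: it was at 2.61, 2.64, 1.14 and 1.24 CPM in ESC Host and at 0.553 and 0.226 CPM in EpiLC Host, and at 0.861, 1.26 and 1.67 CPM in PGC-ESC DKO and 0.449, 0.561 and 0.373 CPM in EpiLC DKO. The EpiLC libraries were below every stem cell library, and Col20a1 fell by 2.41 ± 0.47 (log2, adjusted p = 0.000434) and by 1.61 ± 0.41 (adjusted p = 0.00389). The higher ones were Col9a3, Col12a1 and Col22a1 in the Host conversion and Col9a1, Col14a1 and Col16a1 in the DKO conversion. Col14a1 was at 2.13, 1.65 and 0.995 CPM in EpiLC DKO against 0.677, 0.421 and 0.515 CPM in PGC-ESC DKO, a rise of 1.34 ± 0.52 (adjusted p = 0.0412) that did not pass with the line as a block (adjusted p = 0.0507) or when any library but EpiLC DKO 3 was left out (adjusted p = 0.0564 to 0.156). Among the transmembrane collagens, Col17a1 was lower in the Host conversion, by 1.04 ± 0.35 (adjusted p = 0.0237), and Col13a1 and Col23a1 were called in neither.

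Summed markers of fibroblasts or feeders and of primitive and parietal endoderm were higher in the EpiLC libraries, each through a few genes. The summed CPM of 8 fibroblast or feeder markers, leaving out collagens, was 4.27 to 16.1 in the 15 stem cell libraries and 24.1 to 30.0 in the EpiLC libraries. From ESC Host to EpiLC Host the mean of Twist1 went from 2.84 to 15.1 CPM, of Thy1 from 1.31 to 7.93 CPM and of Dcn from 0.00946 to 2.29 CPM, while Pdgfrb went from 3.76 to 1.07 CPM and Pdgfra from 1.33 to 0.885 CPM. Lum and Prrx1 stayed under 0.2 CPM in every group mean, and Postn was at 0 in every stem cell group and in EpiLC Host. The sum of 9 markers of primitive and parietal endoderm, a major source of embryonic laminin and collagen IV, was 4.43 to 15.1 and 16.4 to 35.9 CPM. Between the Host groups Dab2 went from 1.11 to 15.5 CPM and Amn from 1.13 to 5.11 CPM, while Sox7 went from 1.95 to 0.875 CPM and Hnf4a from 0.855 to 0.0426 CPM, and Gata6 was at 0.319 and 0.350 CPM, so the list did not move as a set. The sum of 3 neuroectoderm markers was 17.0 to 39.0 and 147 to 254 CPM, and all 3 were higher in the mean of EpiLC Host than of ESC Host. Not every list rose. The sum of trophoblast markers was 95.2 to 203 CPM in the stem cell libraries and 12.6 to 32.4 CPM in the EpiLC libraries. That of mesoderm markers overlapped, at 7.42 to 32.4 and 10.7 to 16.3 CPM. The part of the cells marked by these lists in the collagen and laminin results was not tested.

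Genes that process, bind or degrade collagen and laminin were listed from textbook knowledge, 61 in all, of which 58 were tested. In the Host conversion 23 were higher and 13 lower, and in the DKO conversion 27 and 12. The median log2 fold changes were 0.49 and 0.62. Over all genes 22.4% and 21.7% were called in the Host and 25.1% and 22.5% in the DKO conversion. The lower counts are thus near or under the background. Which of the 58 reached the filter only because of the EpiLC libraries was not determined. Such genes could only be found higher, so the higher counts and the medians of these lists are no sign of a direction. Some enzymes that cross-link or trim collagen stood among the higher ones in both: the lysyl oxidase gene Lox had 3 reads over ESC Host and 128 over EpiLC Host, a ratio of 86.7 (95% counting interval 28.99 to 426, adjusted p = 2.78e-05), and 0 over PGC-ESC DKO and 196 over EpiLC DKO, at least 53.4-fold higher (adjusted p = 3.43e-05). Their relatives Loxl3, Loxl4 and Adamts14 were not called in the Host conversion. On the log2 scale Loxl2 was at 4.93 ± 0.55 and 6.10 ± 0.67, and the procollagen peptidase gene Adamts3 at 4.05 ± 0.56 and 3.73 ± 0.63. Other processing genes fell in both, such as Crtap and P3h1, which act together in prolyl 3-hydroxylation (Crtap by 1.26 ± 0.13 and 1.19 ± 0.11), while the collagen chaperone gene Serpinh1 was at 0.01 ± 0.29 and -0.03 ± 0.28. Pcolce, also lower in both, was at -3.50 ± 0.82 and -2.96 ± 0.69.

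Of the 10 tested matrix partners 3 were higher, which is near the background of 22.4% and 25.1% of all genes, and 4 lower, beside 21.7% and 22.5%, in each conversion. The lower ones were Nid1 and Nid2, whose nidogens link laminin to collagen IV, Fn1 and Sparc; Nid1 fell by 4.23 ± 0.39 in the Host conversion (log2, adjusted p = 1.66e-07) and by 3.82 ± 0.33 in the DKO conversion (adjusted p = 6.42e-08). Of the 13 tested receptors 3 were higher and 2 lower in the Host conversion and 6 higher and 1 lower in the DKO conversion, so the Host counts are near or under the share of all genes. The laminin-binding integrin gene Itga3 was at 2.99 ± 0.51 and 4.05 ± 0.57, and the collagen receptor gene Ddr1 at 1.52 ± 0.18 and 1.63 ± 0.18, while Ddr2 was lower in both. Of the 6 tested turnover genes 5 were higher (Mmp2, Mmp9, Mmp14, Timp2 and Timp3) and 1 lower (Timp1) in both.

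No collagen or laminin gene was called in the difference between the conversions, DKO minus Host, where 0.00611% of all tested genes were called and 1 of the 45 had an unadjusted p under 0.05 (DESeq2 also called 0). That gene was Col6a5, at 1.68 ± 0.62 on the log2 scale with an adjusted p of 1; it is named here because of its value. Nor was any called between EpiLC DKO and EpiLC Host directly, beside 0.0428% of all genes, and there Lama3 was the 1 gene with an unadjusted p under 0.05 (log2 difference 1.12 ± 0.34, adjusted p = 0.91; DESeq2 called 0). The median of the 45 was 0.30 in the first comparison and -0.02 in the second. The comparison of the EpiLC groups shares libraries with both conversions.

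Origin from germ cells or embryos gave no call among these genes. In PGC-ESC BaxKO against ESC BaxKO 0 of 45 were called, beside 0.0367% of all genes, and 10 had an unadjusted p under 0.05, which is 22.2% of them beside 10% of all genes. In PGC-ESC DKO against ESC Host 0 were called, beside 0.116% of all genes, and 9 had an unadjusted p under 0.05, which is 20% beside 7.3% of all genes. DESeq2 called 0 in each as well. Origin, the DKO genotype and a reporter change together in the second comparison and cannot be told apart there. PGC-ESC DKO and ESC Host are also the parent groups of the conversions above.

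Differences were called across the strain labels. Between ESC BaxKO and ESC Host the Bax genotype, strain label and time of derivation change together and cannot be told apart. In ESC BaxKO against ESC Host 3 genes were higher and 2 lower, beside 2.76% and 2.26% of all genes. The ESC BaxKO lines held 4.41 and 6.36 CPM of Col11a1 and the ESC Host lines 0.946, 2.20, 0.680 and 0.348 CPM, a log2 difference of 2.33 ± 0.45 (adjusted p = 0.00653). Col5a2, a partner of Col5a1 in collagen V, was at 1.70 and 3.55 CPM against 0.909, 0.220, 0.464 and 0.199 CPM, a difference of 2.45 ± 0.60 (adjusted p = 0.0265). Col1a2 was at 0.650 and 1.59 CPM against the ESC Host levels given above, a difference of 2.76 ± 0.67 (adjusted p = 0.0246). In each of the 3 both ESC BaxKO lines lay above all ESC Host lines.

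The lower genes were fibril-associated collagens. The ESC BaxKO lines held 0.181 and 0.0468 CPM of Col14a1 and the ESC Host lines 1.06, 0.792, 0.958 and 0.149 CPM, so ESC Host 4 lay between the ESC BaxKO lines, with a difference of -2.65 ± 0.70 (log2, adjusted p = 0.0359). Col9a3 was at 0.795 and 1.08 CPM against 3.41, 3.87, 1.58 and 2.24 CPM, with no overlap and a difference of -1.62 ± 0.42 (adjusted p = 0.0335). Its exons share 234 bases with the antisense gene Tcfl5, and without a stated strand setting reads of both cannot be told apart. All 5 calls were absent when the fit held only the compared groups, with a term for Y-linked reads, or without ESC BaxKO 2 (0 called each), and 2 were called without ESC Host 1 and 3 without ESC BaxKO 1. Among libraries under 10000 CPM of Rn45s, Col11a1 was at 4.41 CPM in ESC BaxKO 1 against 0.946 and 2.20 CPM in ESC Host 1 and 2, and among those above it at 6.36 CPM in ESC BaxKO 2 against 0.680 and 0.348 CPM in ESC Host 3 and 4; each side holds 1 ESC BaxKO library, so these values carry no test.

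Between the germ cell-derived groups, PGC-ESC BaxKO against PGC-ESC DKO, 2 genes were higher and 1 lower, beside 12.2% and 11.4% of all genes; 6 genes were called without PGC-ESC BaxKO 3, 5 without PGC-ESC DKO 3, 2 without PGC-ESC DKO 1 and 2 without PGC-ESC DKO 2. The PGC-ESC BaxKO lines held 2.58, 3.15, 2.35, 4.40 and 2.38 CPM of Col11a1 and the PGC-ESC DKO lines 0.677, 0.491 and 0.901 CPM, a log2 difference of 1.95 ± 0.45 (adjusted p = 0.00681). Lama3 was at 29.0, 29.2, 14.9, 37.6 and 28.8 CPM against 88.3, 60.0 and 82.3 CPM, a difference of -1.62 ± 0.26 (adjusted p = 0.000658). Neither gene overlapped between the groups. Lama3 in ESC BaxKO was at 27.2 and 20.3 CPM and in the Bax heterozygous line at 27.4 CPM, and ESC Host 3 and 4, at 35.2 and 34.2 CPM, lay within the range of PGC-ESC BaxKO.

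The PGC-ESC BaxKO lines held 33.2, 13.0, 32.97, 25.1 and 9.81 CPM of Col5a1 and the PGC-ESC DKO lines 6.46, 5.12 and 9.91 CPM, a difference of 1.51 ± 0.41 (log2, adjusted p = 0.0147), and PGC-ESC BaxKO 5 lay just below PGC-ESC DKO 3. It was not called without PGC-ESC DKO 1 (adjusted p = 0.0514) or 2 (adjusted p = 0.0808). The Rn45s sets coincide with these groups, so that set, strain and genotype cannot be told apart within them; with an Rn45s term over all 7 groups 1 call, Lama3, was left, and over all genes the share called went from 23.6% to 1.25%.

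Within PGC-ESC BaxKO several genes separated the same lines, a pattern seen in the values and given without a test. It is not particular to these genes, because the libraries split in the same way over all genes. The chi-square per gene between pairs of libraries was 6.72 to 18.0 among lines 1, 3 and 4 and 26.1 between lines 2 and 5. Between these sets of lines it was 46.8 to 67.4. PGC-ESC BaxKO 2 and 5 and both ESC BaxKO lines carried reads of Y-linked genes, at a mean of 47.0 to 61.1 CPM over 4 genes, and PGC-ESC BaxKO 1, 3 and 4 carried none. Col9a2, a cartilage collagen chain, was at 73.3, 54.6 and 29.2 CPM in lines 1, 3 and 4, at 3.24 and 2.03 CPM in lines 2 and 5, and at 3.11 and 4.35 CPM in ESC BaxKO. Col1a1 was at 11.8, 6.17 and 5.81 CPM in lines 1, 3 and 4, at 0.856 and 0.649 CPM in lines 2 and 5 and at 0.867 and 0.795 CPM in ESC BaxKO.

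The laminin gene Lamb1 ran the other way in the same lines. It was at 31.2, 32.1 and 41.3 CPM in lines 1, 3 and 4, at 88.3 and 89.9 CPM in lines 2 and 5 and at 97.0 and 82.2 CPM in ESC BaxKO. For these 3 genes lines 2 and 5 therefore lay with the embryo-derived BaxKO lines, and lines 1, 3 and 4 apart. The Bax heterozygous ESC line had no Y-linked reads and was at 11.2 CPM of Col9a2, 3.08 CPM of Col1a1 and 90.1 CPM of Lamb1. In the Host set the order did not follow Y-linked reads in the same way. ESC Host 1, 2 and 3 had none and spanned 7.79 to 58.1 CPM of Col9a2 and 40.9 to 139 CPM of Lamb1. In PGC-ESC DKO, line 3 carried Y-linked reads, at a mean of 42.8 CPM, and lines 1 and 2 none. Lines 1, 2 and 3 were at 7.81, 18.1 and 18.7 CPM of Col9a2. They were at 1.45, 3.44 and 3.35 CPM of Col1a1 and at 61.4, 31.3 and 52.8 CPM of Lamb1.

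**Figure D5:**
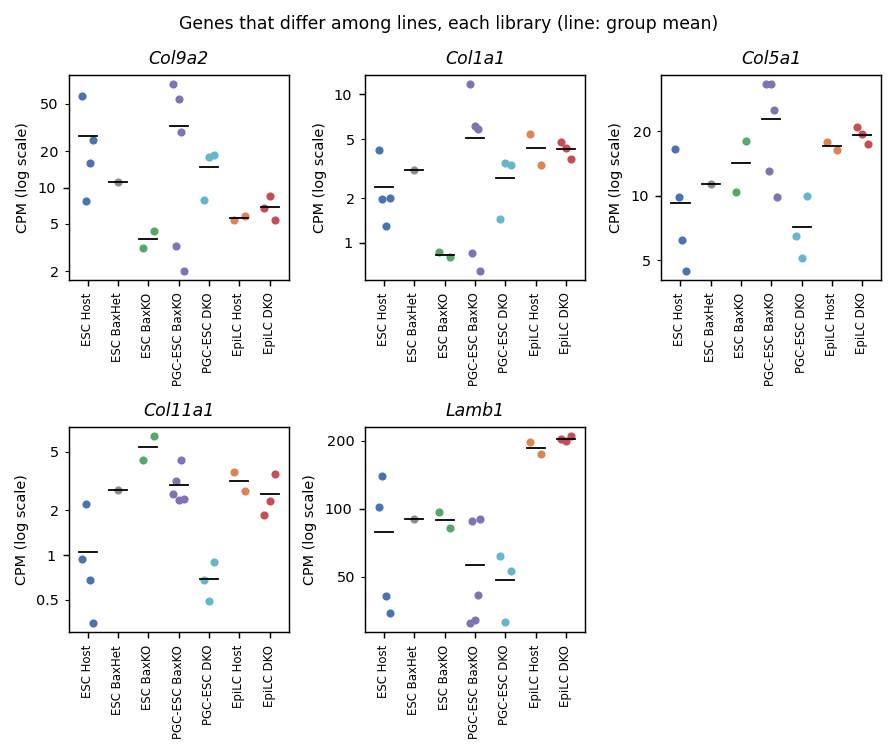
Levels of 5 genes in CPM (log scale), 1 point per library, with a black line at each group mean. In PGC-ESC BaxKO the points form an upper set of 3 and a lower set of 2 for Col9a2, Col1a1 and Col5a1 and a lower set of 3 and an upper set of 2 for Lamb1, while the EpiLC points lie close together for Lamb1.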

How the data were processed

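The authors deposited whole-number read counts by gene for 20 libraries. Per the submitters' processing notes STAR 2.7.7a and build mm10 were used; no source states the counting tool, annotation or strand setting, so overlapping genes cannot be told apart. The quasi-likelihood F test of edgeR 4.0.16 (R 4.3.3; DESeq2 1.42.0 as an alternative) was run with TMM scaling, edgeR's own low-count filter, 1 coefficient for each of 7 groups, 13 residual degrees of freedom, 8 comparisons, and Benjamini-Hochberg adjustment over 16363 genes, with a gene called at an adjusted p under 0.05. Standard errors were taken from the fold change and its F statistic. CPM is the count scaled by the library total; lengths per gene are exon unions of GENCODE vM21 on the same build. The test was checked on simulated data. Genes given in every library were those called outside the conversions, the 14 conversion calls with the smallest adjusted p, and 8 chains taken regardless; 1 of these genes is counted but not reported here. The genes and lists were chosen with earlier results of these data known. EpiLC libraries come from the same lines as their parents by label; their correlations were 0.0931 to 0.185 over genes. Alternatives are in the closing section.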

Additional observations from a re-analysis of the deposited data

Results flagged for a closer look

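In groups of 4 or 5 libraries, 40 sets of values of named genes were screened for a library whose gap to the next was large for the range of its group, which chance gives in about 1 in 20 sets, and 3 were found, all in PGC-ESC BaxKO. Col4a1 was at 14.4 CPM in line 1 and at 5.08 to 6.69 CPM in the other 4. Col5a2 was at 3.07 CPM in line 4 and at 1.22 to 1.47 CPM in the others. Lamc1 was at 931 CPM in line 2 and at 614 to 702 CPM in the others.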

How the results depend on the processing

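Other scaling, no filter, DESeq2, only the compared groups, an Rn45s term and each library left out were tried for each comparison, and a line block, parent lines only and, chosen after seeing the data, a Y-linked term where they applied. Of 45 called values of named genes, 31 stayed called in every alternative run that gave them an adjusted p, and 0 changed sign. In the DKO conversion Col24a1 and Col25a1 had 11 such runs and the other named genes 12. Genes called ran from 15 (without EpiLC Host 3) to 30 in the Host conversion and from 21 to 28 in the DKO conversion as libraries were left out. With the line as replicate block, 28 were called in each, with 22 of the 25 Host and 26 of the 28 DKO calls kept. That fit leaves 3 residual degrees of freedom over 12 libraries, against 13 in the main fit. The 4 comparisons without calls gave 0 in every alternative run. In ESC BaxKO against ESC Host the 5 calls became 9 with DESeq2, 0 in the compared groups alone, 0 with the Y-linked term, 0 with a block by shared number, and 0 to 6 as libraries were left out. In PGC-ESC BaxKO against PGC-ESC DKO the 3 calls became 6 with DESeq2, 1 with the Rn45s term, 4 with the block, and 2 to 6 as libraries were left out (6 without PGC-ESC BaxKO 3, 5 without PGC-ESC DKO 3). The numbers of different lines share only a number (correlations -0.236 to 0.0489), and no paired analysis was possible between the EpiLC groups because they share 1 number. Genes under about 1 CPM rest on few reads and their values are the least precise. The cause of these changes was not tested.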
